A study of Mus musculus with 9 samples.

Results

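The 3 libraries titled RES, from mice that had taken cocaine, were compared with 3 libraries from drug-naive mice, across the genes of a raw count table. The 6 libraries are all of those with these titles among 9 in the series, and 39210 of the 52636 genes in the table had enough counts to be tested. Both groups were male C57BL/6 mice of wild-type genotype. The RES mice first learned to take up to 40 infusions on a fixed ratio schedule and were then given 10 daily sessions of 23 h on a progressive ratio schedule, in which the number of responses needed for an infusion (1.2 mg/kg each) keeps growing. Accumbens punches were made on day 3 from the end of these sessions. For both groups the labels describe perfusion with cold saline, punches pooled from 2 to 3 mice, papain dissociation in a medium with DNase I, staining with an Alexa Fluor 488 antibody against ChAT and sorting of the stained cells for total RNA. The other 3 libraries, titled SUS, came from mice with the same cocaine protocol. They entered the model of the spread and are set beside a few values. The behavioural phenotype field contradicts the titles of RES and SUS, so RES is used only as a name and no value is read as susceptible or resilient. Nothing in the labels states that each library had its own pool of mice, so every p-value here measures only the spread between these libraries, which may be technical.

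The nucleus accumbens is the part of the ventral striatum in which dopamine acts on medium spiny neurons, the projection neurons, during reward and drug taking. Cholinergic interneurons are a small minority of its neurons, release acetylcholine and modulate both dopamine release and the spiny neurons. Chat makes acetylcholine, Slc18a3 loads it into vesicles and Slc5a7 takes up choline. Class II molecules of the major histocompatibility complex (MHC) present peptides from ingested protein to CD4 T cells. H2-Aa and H2-Ab1 encode the chains of one class II molecule, H2-Eb1 a chain of another, Cd74 the invariant chain that guides them through the cell, and H2-DMb1 a chain of the H2-M complex that helps load the peptide. In brain these genes are known mainly from border macrophages, dendritic cells and activated microglia.

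The promoters of class II genes share an arrangement of short elements, of which the X box includes a sequence like a cAMP response element and the Y box is an inverted CCAAT box. They are shown because 4 of the 12 genes with the smallest p among those separated lower in RES, described below, belong to class II presentation. H2-Eb1 and H2-DMb1 are of these 4. No promoter of H2-Ab1 was at hand, and that of Cd74 was left out. H2-Aa is not among the 12 and was added after its values were seen. The 250 bases before the RefSeq start (GRCm38.p6), 5′ to 3′ on the strand of the gene, are printed with matches to CTGATTGG (Y box) and TGACGTCA (cAMP response element) in capitals. Both strands were searched and the matches do not overlap. H2-Aa lies at chr17:34287824-34288073 on the minus strand, H2-Eb1 at chr17:34305617-34305866 and H2-DMb1 at chr17:34152941-34153190 on the plus strand.
H2-Aa: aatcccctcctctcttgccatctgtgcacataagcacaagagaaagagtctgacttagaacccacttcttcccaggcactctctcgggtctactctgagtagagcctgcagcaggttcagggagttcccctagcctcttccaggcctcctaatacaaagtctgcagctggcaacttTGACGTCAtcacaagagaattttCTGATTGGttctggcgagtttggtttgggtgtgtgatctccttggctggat
H2-Eb1: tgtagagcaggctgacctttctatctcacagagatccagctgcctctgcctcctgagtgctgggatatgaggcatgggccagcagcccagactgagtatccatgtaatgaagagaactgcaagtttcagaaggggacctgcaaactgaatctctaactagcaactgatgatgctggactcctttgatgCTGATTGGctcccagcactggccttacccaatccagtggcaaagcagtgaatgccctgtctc
H2-DMb1: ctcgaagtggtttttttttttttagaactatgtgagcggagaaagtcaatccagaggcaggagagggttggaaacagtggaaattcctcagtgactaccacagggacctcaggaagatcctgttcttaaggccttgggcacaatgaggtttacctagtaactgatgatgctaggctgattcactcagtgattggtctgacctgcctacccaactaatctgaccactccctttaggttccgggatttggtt

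Counted back from the start, H2-Aa had the cAMP response element at -74 to -67 and the Y box at -51 to -44. H2-Eb1 had the Y box at -62 to -55 and no match to TGACGTCA. H2-DMb1 had neither of these exact letters in the window. That window, set by the RefSeq start, runs past 34153072, where the gene position given below begins. Part of it therefore lies inside that gene model. Of 32851 mouse promoter windows of this length, 3.83% held CTGATTGG and 1.55% held TGACGTCA, so a match alone is not rare. The matches describe the sequences and nothing in the libraries was measured on them.

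Before any comparison, the sorted label was checked against the genes that define these neurons. Background was taken as the count density, per kb of exon, of 1127 olfactory receptor genes, which the accumbens does not use. A protein-coding nuclear gene was called above background when it averaged more than 3 times that density over the 6 libraries, which 5591 of the tested genes did. Of 17 genes of cholinergic identity, 0 were above background, and their median was 1.40, 1.49 and 1.41 times background in the naive libraries and 1.25, 1.59 and 1.55 in RES. A set of 42 genes silent in brain was at 1.74 to 1.90 in naive and 1.49 to 2.12 in RES, so the cholinergic genes were not distinguishable from silent genes. Chat was at 16.8, 13.3 and 17.8 CPM (counts per 1000000 counts of the scaled library) in naive and 14.4, 20.2 and 20.3 in RES, with overlapping groups and a log2 fold change of 0.18 (SE 0.57), RES minus naive. Slc18a3 (-0.32, SE 0.49) and Slc5a7 (0.22, SE 0.23) were also near or below background, at 0.39 to 1.46 times its density. By contrast, 18 of 20 medium spiny neuron genes, 17 of 18 astrocyte genes and 19 of 20 microglial genes were above background. Of the 42 genes silent in brain 7 also passed this cutoff, so passing it does not by itself show expression.

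**Figure D1:**
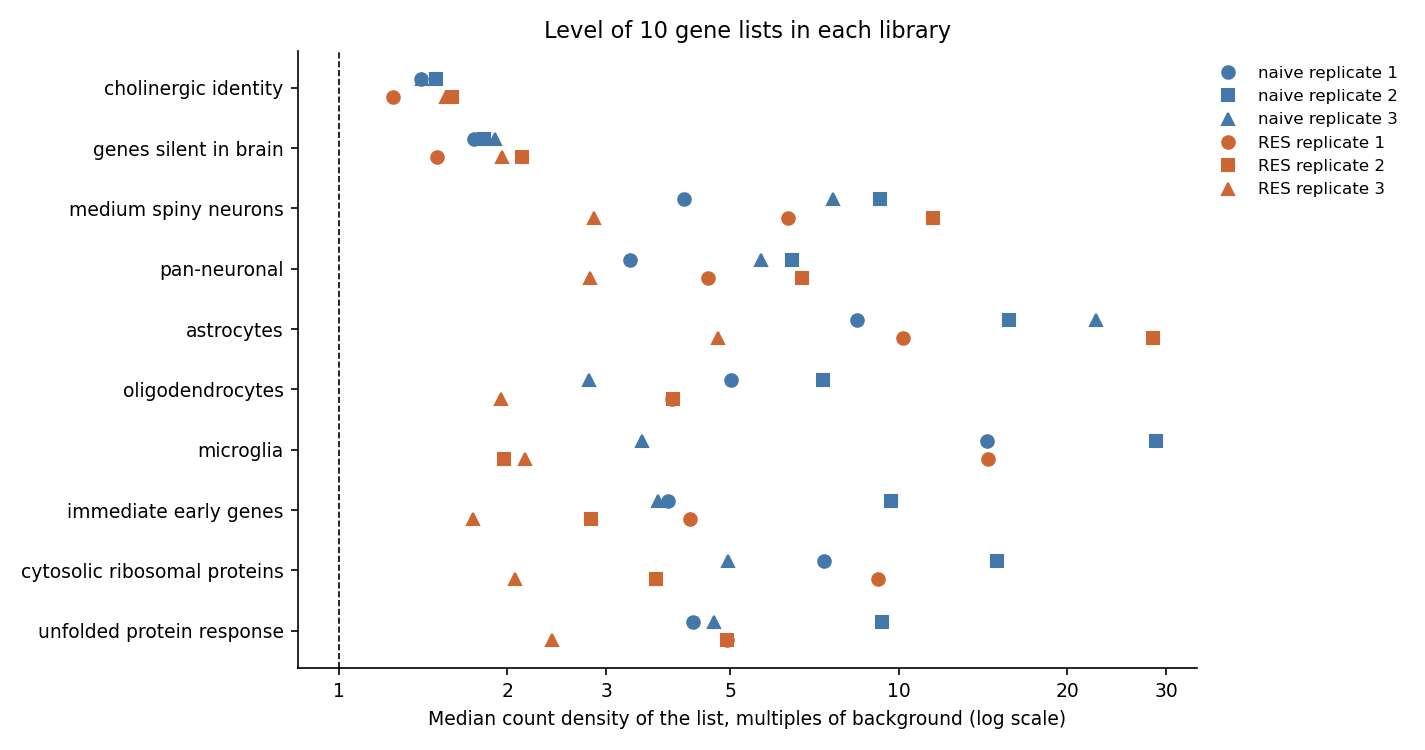
Median count density of 10 gene lists in each library, in multiples of the background density on a log scale. Circles, squares and triangles are replicates 1, 2 and 3, blue is naive and orange is RES. The cholinergic list stays between 1.25 and 1.59 in every library, and the microglial list spans 1.97 to 28.8 with RES replicate 1 next to naive replicate 1.

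The libraries of each group differed in depth and make-up. Totals were 4471675 to 10667056 counts in naive and 4574518 to 6895457 in RES, and mitochondrial genes took 17.1% to 27.0% and 9.09% to 28.7% of them. Between 21.7% and 34.0% of nuclear counts lay at the density of background in naive, 23.2% and 29.8% in RES replicates 2 and 1, and 45.3% in RES replicate 3, which therefore stands apart. Over all genes with a count in any library of the series, rank correlations between pairs of the 6 libraries ran from 0.935 to 0.968. The highest was between naive replicate 1 and RES replicate 1.

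No gene passed. With edgeR's quasi-likelihood test and Benjamini-Hochberg adjustment, 0 of 39210 genes (0%) reached an adjusted p of 0.05, and the smallest adjusted p was 1.00. At an unadjusted p under 0.05 there were 173 genes lower in RES (0.441%) and 188 higher (0.479%). The call of 0 genes was the same in DESeq2, where 317 had an unadjusted p under 0.05, and in limma-voom with weighted samples, where 1671 did. The median standard error of a gene's log2 fold change was 0.35. Values below are therefore descriptions of direction and size, none of which passed a test over all genes.

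The median log2 fold change was -0.02 over all genes tested, of which 52.6% were lower in RES. It was -0.14 over the 5591 genes above background, of which 77.4% were lower. That lean moved with single libraries. Without RES replicate 3 the median was 0.05 and 41.6% were lower, without naive replicate 2 it was -0.02 and 56.0% were lower, and without RES replicate 2 it was -0.33 and 87.9% were lower. It was -0.27 with 86.6% lower without naive replicate 1. When the libraries were scaled on the genes above background, an alternative chosen after seeing the data, the median was 0.03 over them, 45.3% were lower, and the median of all genes moved to 0.21. Lists below are given with all members tested, beside -0.02 over all genes tested, unless only their members above background are named, which stand beside -0.14. Where most members of a list are above background, -0.14 and 77.4% lower are the closer reference for the whole list too.

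Among genes above background, all 3 RES libraries lay below all 3 naive libraries for 85 (1.52%) and above them for 28 (0.501%). After the background density was subtracted from each library, 164 and 64 genes were separated in these directions, and 94 and 140 when the libraries were scaled on genes above background. Thus the ratio of lower to higher separated genes turned with the scaling. Of 5145 genes that also reached 10 CPM in a group, 72 were separated lower and 15 higher, predicted genes and olfactory or vomeronasal receptors left out. The 12 with the smallest p in each direction are described next.

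Of the 12 separated lower genes 4 belong to class II presentation, namely Cd74, H2-Ab1, H2-Eb1 and H2-DMb1. They are also the only class II genes among all 72 separated lower. The share of class II genes among the 5145 was not counted, so no enrichment is read from the 4. The level conditions could be met through the group where a gene is high. H2-DMb1 was at 3.61 to 3.95 times background in naive and 1.84 to 2.66 in RES, where its mean was 8.14 CPM. Lgals3bp, Plekhg2 and Hmga1 were also under 3 times background in every RES library. The 4 of 12 therefore depend partly on this rule. Cd74 (chromosome 18, 60803848 to 60812652) was at 52.4, 90.1 and 55.4 CPM in naive and 47.8, 13.5 and 11.8 in RES. RES replicates 2 and 3 were far below every naive library, while RES replicate 1 was just under the lowest of them. The log2 fold change was -1.43 (SE 0.59, unadjusted p = 0.029), and it was -1.09 without RES replicate 3 and -2.36 without RES replicate 1. In bulk libraries fewer cells of a type and less RNA per cell cannot be told apart.

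H2-Ab1 (chromosome 17, 34257689 to 34269419), the gene of the class II A beta chain, was at 25.3, 35.4 and 26.8 CPM in naive and 22.4, 11.6 and 9.75 in RES (log2 fold change -0.99, SE 0.42). H2-Eb1 (34305867 to 34316674), the E beta chain, was at 15.3, 19.3 and 25.4 CPM against 14.5, 11.2 and 10.4 (-0.74, SE 0.33). In both, RES replicate 1 was again the library nearest to naive, and the groups did not overlap. H2-DMb1 (34153072 to 34160230) was at 13.9, 11.2 and 13 CPM in naive and 6.84, 7.30 and 10.3 in RES (-0.64, SE 0.29). Here RES replicate 1 was the lowest of all libraries, and after subtraction of background the groups overlapped. H2-Aa (34282744 to 34287823), whose promoter is printed above, was named after its values were seen. It was at 15.2, 19.0 and 26.3 CPM in naive and 15.2, 9.02 and 11.4 in RES (-0.76, SE 0.34), with RES replicate 1 level with naive replicate 1, and it averaged under 3 times background. Ciita, the coactivator that switches class II genes on, was at 0.73 to 1.49 times background in the 6 libraries, so its log2 fold change of -0.06 (SE 0.25) says little about it.

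The class II genes did not follow the microglial genes in every library. In naive replicate 3, Cx3cr1, the fractalkine receptor of microglia, was at 25.8 CPM against 229 and 438 in the other naive libraries, while Cd74, H2-Ab1 and H2-Eb1 there were within or above the range of the other naive libraries. In RES replicates 2 and 3, Cx3cr1 was at 11.2 and 19.0 CPM and all 3 class II genes were low as well. In RES replicate 1, Cx3cr1 was at 225 CPM. The 20 microglial genes summed to 449 to 4377 CPM in naive and 212 to 2409 CPM in RES, and none of them was at 0 counts in any of the 6 libraries. Their part in the class II values was not tested.

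**Figure D2:**
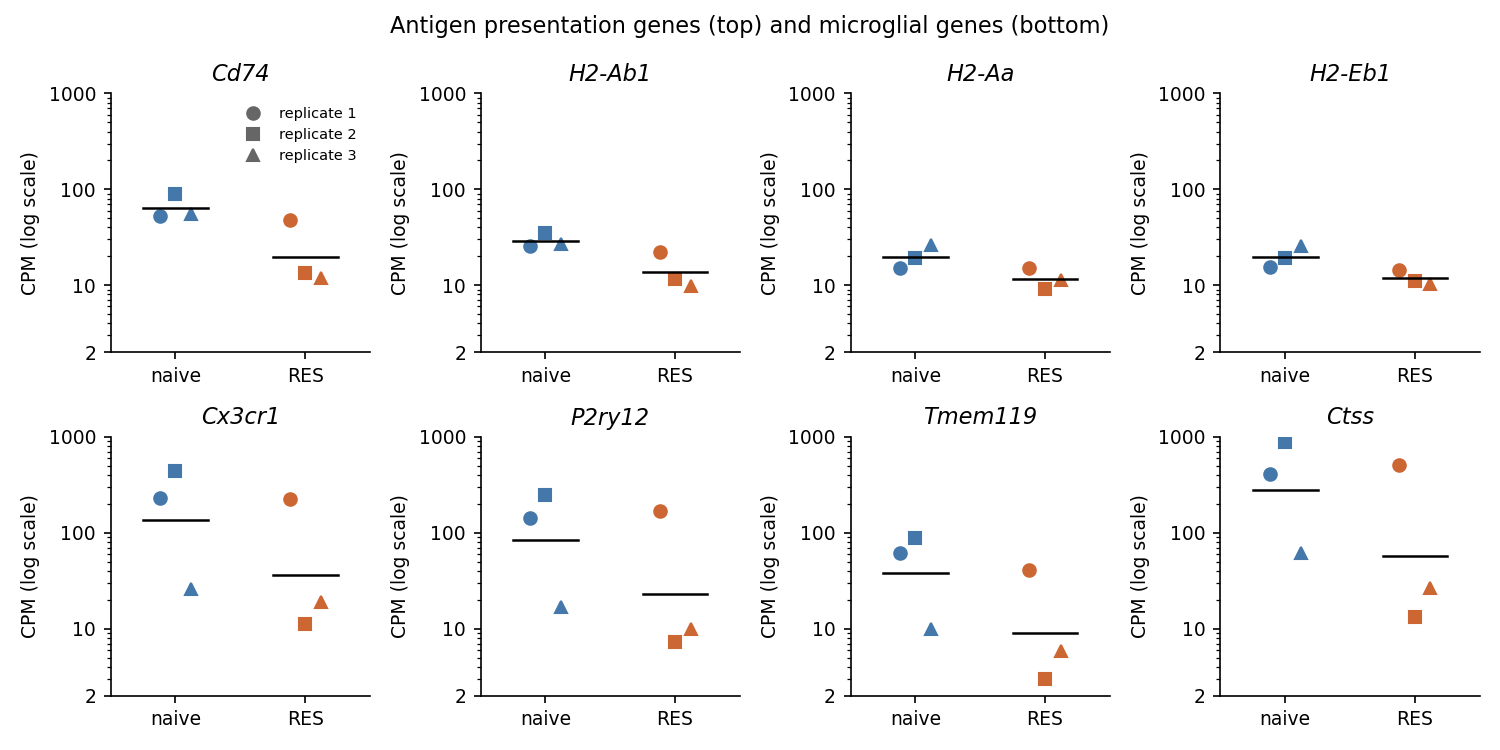
CPM on a log scale of 4 antigen presentation genes (top) and 4 microglial genes (bottom) in each library. Circles, squares and triangles are replicates 1, 2 and 3, and the black line is the geometric mean of a group. In naive replicate 3 the microglial genes are low (Cx3cr1 25.8 CPM) and Cd74 is not (55.4 CPM), and in RES replicates 2 and 3 both sets are low.

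The wider list of border and blood macrophages and antigen presentation had 12 of 14 genes lower and a median log2 fold change of -0.38. It includes Cd74, H2-Ab1, H2-Eb1 and H2-Aa, named above by their values, so its direction partly restates theirs. With scaling on genes above background the median was -0.16 and 9 of 14 were lower. Of its 5 genes above background all were lower in the first scaling, 3 of them the separated class II genes. The other 2 were Mrc1, the mannose receptor of border macrophages, and Lyz2, lysozyme of myeloid cells. Mrc1 was at 44.0, 57.7 and 42.8 CPM in naive and 45.7, 25.1 and 30.3 in RES (-0.51, SE 0.38). Lyz2 was at 23.9, 51.7 and 14.5 CPM against 33.5, 4.30 and 10.1 (-0.88, SE 0.68). Both had RES replicate 1 within the naive range, so the groups overlapped.

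The separated lower genes outside this pathway were of varied function. Lgals3bp, a secreted galectin-binding glycoprotein, was at 20.1, 32.6 and 27.4 CPM in naive and 18.6, 14.2 and 9.88 in RES (log2 fold change -0.91, SE 0.36). It had the smallest unadjusted p of them, 0.0229 by edgeR's quasi-likelihood test. Plekhg2, a guanine nucleotide exchange factor, was at 69.3, 86.4 and 40.3 CPM against 34.0, 22.6 and 25.9 (-1.24, SE 0.52). These groups did not overlap, and for Plekhg2 all 3 RES libraries were close together. Syf2, a splicing factor, had -0.77 (SE 0.33), with RES replicate 3 at 11.1 CPM and the other RES libraries at 23.6 and 29.6. The SMC complex subunit Nsmce1 (-0.51), the chromatin protein Hmga1 (-0.66), the signalling adaptor Sh2b3 (-0.71) and the zinc finger protein Zfp385a (-0.67) were also among the 12. All 12 kept a lower level in RES in each of the 6 sets with 1 library left out. So did all 72 genes separated lower, as the choice of separated genes all but ensures, so this adds no support. After subtraction of background 10 of them were still separated, and 8 were when the libraries were scaled on genes above background. In 9 of the 12, RES replicate 1 was the RES library nearest to naive.

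The 12 separated higher genes had smaller differences. Cby1, an inhibitor of beta-catenin that also acts at the base of cilia, was at 7.07, 6.05 and 9.72 CPM in naive and 9.99, 15.2 and 12.0 in RES (log2 fold change 0.66, SE 0.28, unadjusted p = 0.0335). The lowest RES value was only just over the highest naive value. Cby1, Dnajc5g, Nox3 and Odam reached a group mean of 10 CPM only in RES. The rest ran from 0.18 for M1ap to 0.41 for Scrn2, each with an unadjusted p over 0.1. Tgfbr3, the TGF-beta co-receptor betaglycan, was at 34.9, 37.2 and 40.0 CPM against 44.0, 45.1 and 44.2 (0.25, SE 0.25), and it was the 1 gene of the 12 still separated after subtraction of background. Among the others were Phyh, a peroxisomal enzyme that degrades phytanic acid (0.23), the Mediator subunit Med6 (0.22), the elongation factor Tcea2 (0.27) and the interferon-induced gene Ifit3 (0.20). Nox3, Odam, M1ap and Dnajc5g are known mainly from inner ear, teeth or testis, and Lrrc42 completed the set at 0.37. When the libraries were scaled on genes above background, 5 of the 12 stayed separated. All 12 were higher in each set with 1 library left out, which the choice of separated genes again all but ensures.

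**Figure D3:**
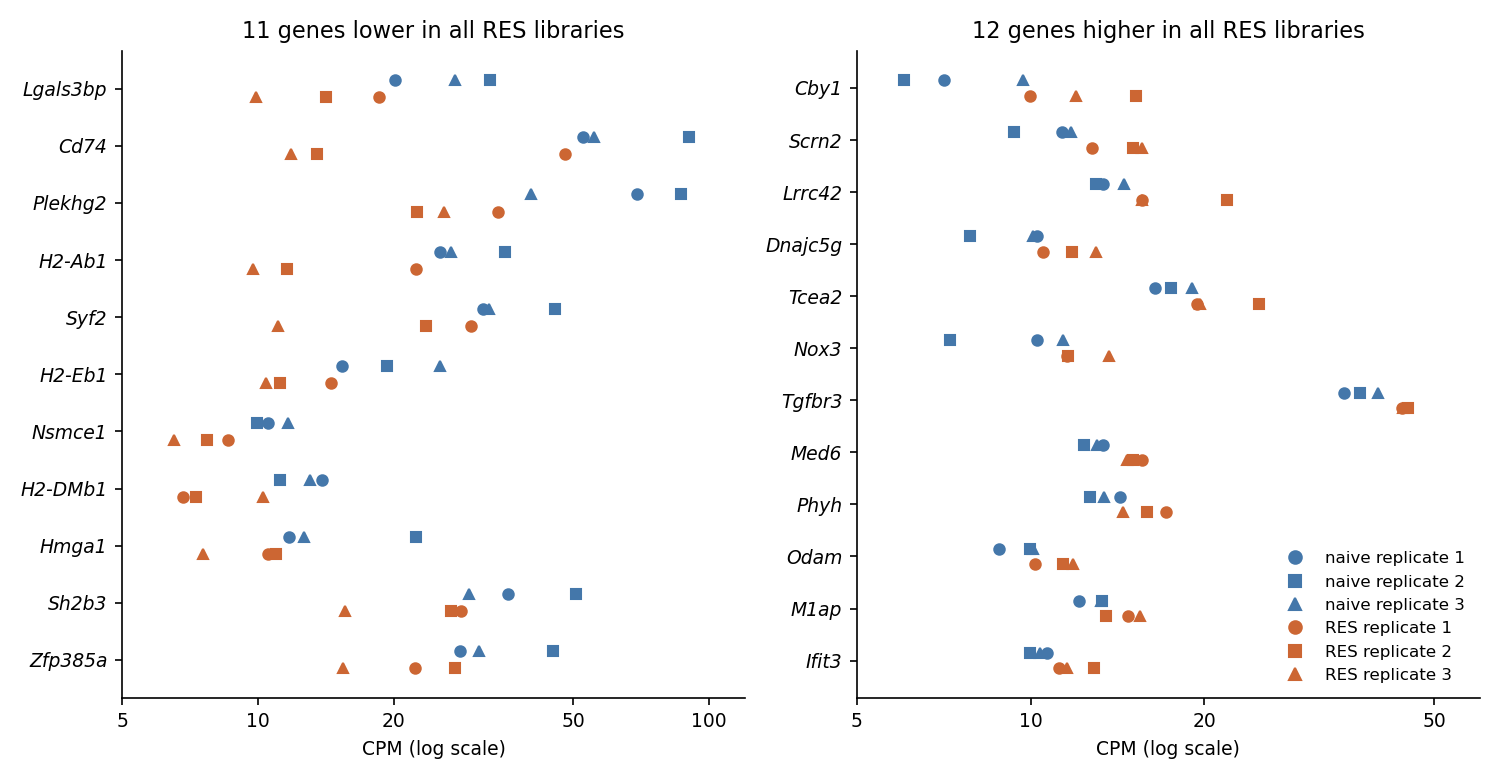
CPM on a log scale of 11 of the 12 genes separated lower (left) and the 12 separated higher (right) in RES, ordered by p from the top. Circles, squares and triangles are replicates 1, 2 and 3, blue is naive and orange is RES. On the left RES replicate 1 often sits next to the naive libraries, and on the right the gaps between groups are small.

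All 20 microglial genes had a lower fitted level in RES, with a median log2 fold change of -1.27, but the groups overlapped for every one of them. The median of the list was 14.3, 28.8 and 3.48 times background in naive and 14.4, 1.97 and 2.15 in RES. RES replicate 1 thus equalled naive replicate 1, and naive replicate 3 was closer to the low RES libraries than to the other naive ones. Fcrls, an Fc receptor-like gene of homeostatic microglia, was at 84.7, 166 and 20.3 CPM against 65.7, 9.45 and 15.7 (-1.57, SE 0.89). P2ry12, the purinergic receptor of resting microglia, was at 144, 249 and 16.8 CPM against 171, 7.30 and 10.0 (-1.12, SE 1.14). The lysosomal protease Ctss ranged further, from 13.3 CPM in RES replicate 2 to 877 CPM in naive replicate 2 (-1.28, SE 1.22). Without RES replicate 1 the list median was -3.15, without RES replicate 2 or 3 it was -0.84 or -0.83, and without naive replicate 2 it was -0.52. All 20 genes were lower in each of the 6 sets.

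Immediate early genes are switched on within minutes by neuronal activity, growth factors and cell stress. Of 30 such genes 28 had a lower fitted level in RES and the median log2 fold change was -0.83, with 0 separated. Jun, a subunit of the AP-1 transcription factor, was at 214, 429 and 76.2 CPM in naive and 205, 36.9 and 28.6 in RES (-1.41, SE 0.88). Fos was at 63.5, 144 and 35.7 CPM against 70.8, 26.0 and 17.6 (-1.08, SE 0.68). The stress factor Atf3 (-1.28, SE 0.75) and the transcription factors Klf2 (-1.36, SE 0.70) and Klf4 (-1.01, SE 0.53) were of the same size. Fosb had -1.08 (SE 0.65), and all 7 AP-1 subunit genes were lower. In each of these RES replicate 1 overlapped the naive libraries. The 2 genes of the list with a higher fitted level were Arc and Npas4, singled out for that reason. Arc, a regulator of synaptic strength, was at 24.7, 53.8 and 34.9 CPM in naive and 30.3, 71.5 and 13.1 in RES (0.02, SE 0.48), and Npas4, a neuron-specific factor induced by calcium entry, at 25.3, 40.2 and 61.3 against 31, 87.6 and 26.7 (0.19, SE 0.49). Both averaged over 3 times background. With 1 library left out their values ran from -0.78 to 0.44 and from -0.54 to 0.57, both signs turned with the replicate number as a block (-0.19 and -0.011) and with limma-voom (-0.12 and -0.053), and Arc was at -0.20 after subtraction of background. Their difference from the rest of the list was not tested. The list median was -0.23 without naive replicate 2, -0.50 without RES replicate 3 and -1.45 without RES replicate 1.

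Ribosomal protein genes showed the same ordering of libraries. Of 74 tested 73 were lower in RES, with a median of -0.75, and 0 were separated. Rplp0, of the ribosomal stalk, was at 47.2, 115 and 33.8 CPM in naive and 54.3, 23.6 and 15.0 in RES (-1.06, SE 0.60), and Rps6 at 39.1, 75.9 and 25 against 40.3, 14.4 and 13.4 (-1.03, SE 0.58). RES replicate 1 was above 2 of the 3 naive libraries for both. The median was -0.29 without naive replicate 2, -0.42 without RES replicate 3 and -1.57 without RES replicate 1. Translation factors were lower in 19 of 20 cases (-0.36), among them Eef1b2 (-1.02, SE 0.67) and Eef2 (-0.67, SE 0.51), which elongate proteins. The median of translation factors was -0.07 with 13 of 20 lower without RES replicate 3, -0.61 without RES replicate 1 and -0.12 without naive replicate 2. Many ribosomal protein genes have near-identical processed pseudogenes, so their counts are less certain.

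Stress and chaperone genes had a lower fitted level in every case, 21 of 21 of the unfolded protein response (median -0.46) and 18 of 18 heat shock genes (-0.38). In both lists 0 genes were separated. Calr, a calcium-binding chaperone of the endoplasmic reticulum, was at 180, 308 and 117 CPM in naive and 174, 97.3 and 39.7 in RES (-0.96, SE 0.57). Hspa8, the constitutive cytosolic chaperone, was at 229, 546 and 248 CPM against 339, 216 and 53.8 (-0.75, SE 0.65). The inducible Hspa1b reached 186 CPM in naive replicate 2 and 80.1 in RES replicate 1, and its log2 fold change of -1.30 (SE 0.91) was 0.12 without naive replicate 2. It has a near-identical copy, Hspa1a, so its counts are less certain. Without naive replicate 2 the heat shock median was -0.02 with 10 of 18 lower. It was -0.09 with 13 of 18 lower without RES replicate 3, and -0.72 without RES replicate 1. The median of the unfolded protein response was -0.19, -0.24 and -0.73 in these same 3 sets. All 13 mitochondrially encoded protein genes were lower (-0.47), and their median was -0.02 without naive replicate 2, -0.07 without RES replicate 3, -0.25 without RES replicate 2 and -1.53 without RES replicate 1.

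Myelin genes were lower as well, in 15 of 17 cases (median -0.48), with all 11 above background lower. Mobp was at 113, 147 and 46.2 CPM in naive and 76.6, 58.6 and 31.6 in RES (-0.87, SE 0.49), and Mag, the myelin-associated glycoprotein, at 70.0, 86.4 and 32.5 against 37.7, 47.9 and 23.8 (-0.79, SE 0.46). Naive replicate 3 lay between RES libraries for both. The median of the myelin list was -0.19 with 12 of 17 lower without naive replicate 2, and it was -0.75 without RES replicate 1 and -0.74 without naive replicate 3. Precursor genes were lower in 10 of 11 cases (-0.27), with a median of -0.09 without RES replicate 3 and -0.17 without naive replicate 2.

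Scaling on genes above background brought every one of these medians nearer to 0, while that of all genes tested was 0.21. Under it the medians were -1.09 for microglia (20 of 20 lower), -0.63 for immediate early genes (24 of 30), -0.59 for ribosomal proteins (72 of 74) and -0.22 for translation factors (17 of 20). They were -0.29 for the unfolded protein response (18 of 21), -0.20 for heat shock (14 of 18), -0.32 for mitochondrially encoded genes (13 of 13), -0.31 for myelin genes (12 of 17) and -0.09 for precursors (9 of 11).

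**Figure D4:**
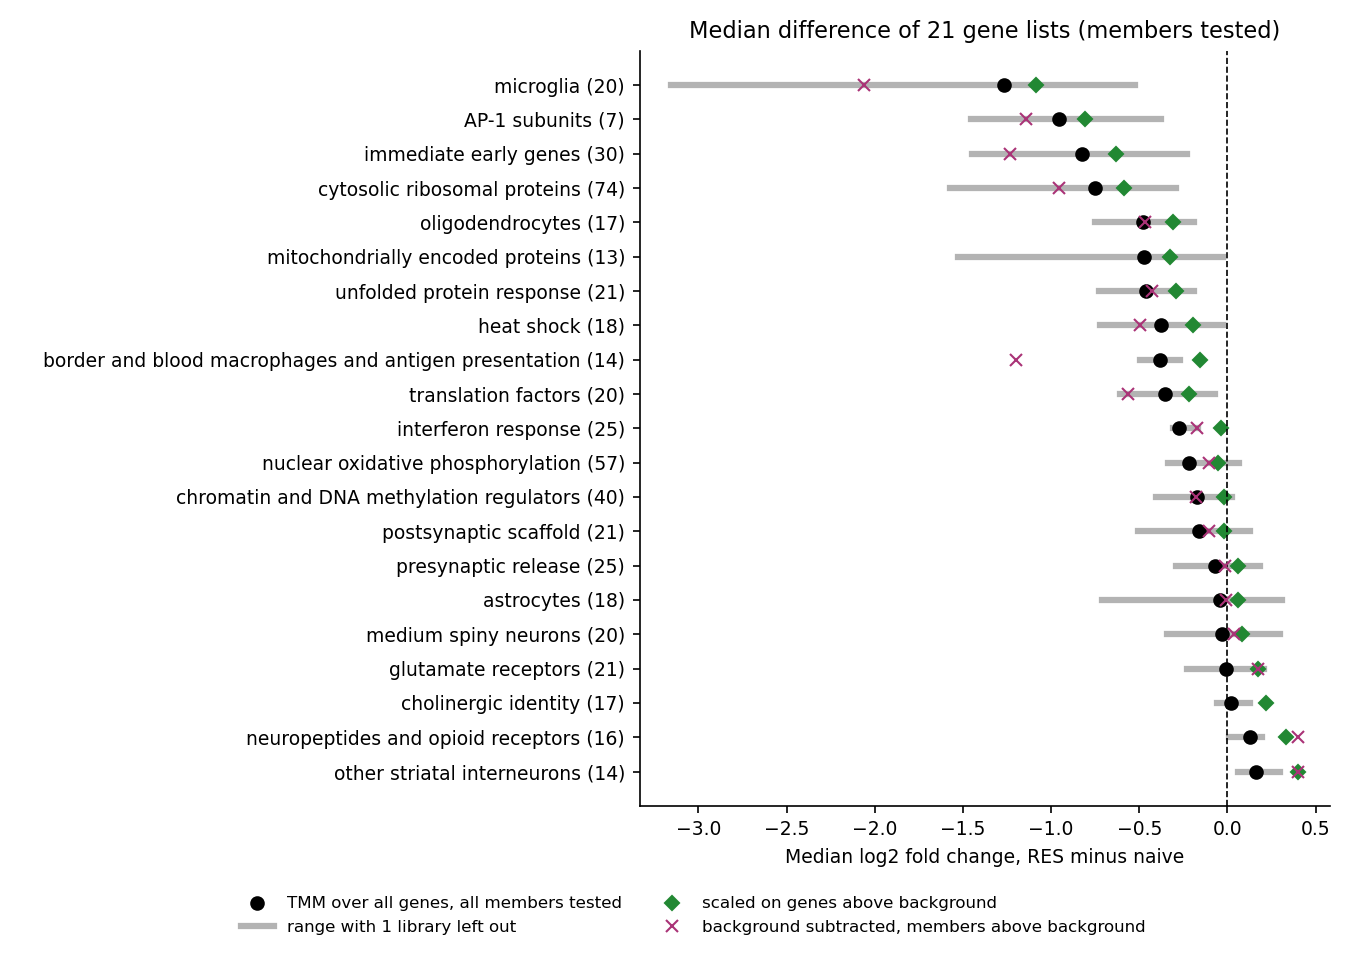
Median log2 fold change, RES minus naive, of 21 gene lists. Black circles are all members tested with the scaling used throughout, grey bars span the medians with 1 library left out, green diamonds use scaling on genes above background, and crosses are values after subtraction of background for members above it. Microglial, immediate early and ribosomal lists stay below 0 throughout. So do others, among them the AP-1, oligodendrocyte, unfolded protein response, heat shock, translation factor, border macrophage and interferon lists. The bars of the medium spiny neuron and astrocyte lists cross 0.

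Medium spiny neuron and astrocyte genes showed no direction that held across library sets. Medium spiny neuron genes were at a median of 4.14, 9.25 and 7.61 times background in naive and 6.33, 11.5 and 2.85 in RES, with 12 of 20 lower and a median log2 fold change of -0.03. That median was 0.30 without RES replicate 3 and -0.34 without RES replicate 2. Adcy5, the main striatal adenylyl cyclase, was at 646, 1331 and 988 CPM in naive and 1018, 975 and 314 in RES (-0.36, SE 0.66), and Rgs9, which curbs dopamine receptor signalling, had -0.31 (SE 0.63). RES replicate 3 was the lowest library for both, and the other RES libraries lay within the naive range. Drd2, the D2 dopamine receptor, was at 27.3, 44.7 and 38.3 CPM in naive and 35.6, 49.8 and 22.4 in RES (-0.03, SE 0.38). Chrm2, a muscarinic autoreceptor of cholinergic neurons (0.46, SE 0.24), the D5 receptor Drd5 (0.76, SE 0.61) and S100a10, the gene of the adaptor p11 (0.07, SE 0.45), had means under 3 times background. Drd5 shares 48.6% of its exonic bases with Gm26560 on the opposite strand. The strand setting of the counting is not given, so the counts of Drd5 are less certain. Astrocyte genes had a median of 8.40, 15.7 and 22.5 times background in naive and 10.2, 28.5 and 4.75 in RES. Glul, glutamine synthetase, was at 170, 282 and 296 CPM against 229, 333 and 56.4 (-0.27, SE 0.59), and Clu, clusterin, had -0.20 (SE 0.50).

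Synaptic and excitability genes had list medians from -0.16 to 0.10. Glutamate receptor genes had a median of -0.01 (11 of 21 lower), postsynaptic scaffold genes -0.16 (17 of 21), GABA signalling 0.10 (10 of 21), presynaptic release -0.07 (18 of 25) and potassium channels -0.04 (16 of 30). Over members above background the medians were 0.05, -0.17, -0.08, -0.13 and -0.04 in the same order. All genes above background had a median of -0.14 with 77.4% lower. With scaling on genes above background the medians over all members were 0.17, -0.02, 0.21, 0.06 and 0.13. Each of the first 5 medians was above 0 without RES replicate 3 and below 0 without RES replicate 2. Sst, the somatostatin peptide of a class of interneurons, was the 1 neuronal list member above background that was separated higher, at 4.80, 4.84 and 5.74 CPM in naive and 6.84, 6.44 and 6.63 in RES (0.36, SE 0.27). It was also separated after subtraction of background. Hcn2, a pacemaker channel, was separated lower at 31.2, 42.6 and 32.6 CPM against 31.2, 29.2 and 20.8 (-0.39, SE 0.39), although RES replicate 1 and naive replicate 1 were almost equal.

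Chromatin and DNA methylation regulators were lower in 37 of 40 cases with a median of -0.17. All 29 members above background were lower, with a median of -0.26 beside -0.14 for all genes above background. The list median was 0.02 without RES replicate 3 and -0.41 without RES replicate 2, and with scaling on genes above background it was -0.02 with 22 of 40 lower. Hdac1, a class I histone deacetylase, was the 1 member above background separated lower, at 49.5, 69.5 and 40.5 CPM in naive and 39.6, 36.1 and 18.6 in RES (-0.76, SE 0.41). The histone demethylase Kdm6b had -0.77 (SE 0.56) with overlapping groups. Interferon response genes had a median of -0.28 (18 of 25 lower), which was -0.17 without RES replicate 3 or without naive replicate 2 and -0.04 with scaling on genes above background. Of these genes 3 were above background, namely Ifi27, Ifit3 and Irf1. Ifi27 was separated lower (-0.29, SE 0.23) and Ifit3 separated higher (0.20, SE 0.26), and neither was separated after subtraction of background. Irf1 was at 33.3, 51.7 and 15.8 CPM against 28.2, 8.16 and 10.7 (-1.08, SE 0.61), where naive replicate 3 lay between RES libraries.

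In the SUS libraries, which share the naive controls with RES, the same genes were spread as widely. Cd74 was at 123, 26.4 and 151 CPM in SUS replicates 1 to 3, Cx3cr1 at 548, 26.6 and 700 and Rplp0 at 120, 28.6 and 150. SUS replicate 2 was low for all 3 genes, near the low RES libraries, and the other SUS libraries were above every RES library. Between SUS and RES 0 of 39210 genes passed edgeR's quasi-likelihood test with Benjamini-Hochberg adjustment (smallest adjusted p = 0.870), with 2227 at an unadjusted p under 0.05.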

How the data were processed

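RNA sequencing of sorted accumbens cells was deposited as 1 table of whole-number counts per Ensembl gene, which the authors did not scale. The build GRCm38 and the tools STAR 2.5.2b, FastQC, HTSeq, DESeq2 and DESeq are listed in the submitters' processing notes, and the annotation release and strand setting are not given in the sources used here. Groups follow the sample titles, which the behavioural phenotype field contradicts for RES and SUS. Lengths, positions and symbols came from GENCODE mouse release M21 (52489 of 52636 IDs) and a table of gene names (52403 IDs). Promoters came from RefSeq.

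Counts were filtered with filterByExpr, scaled with TMM, a trimmed mean of log ratios between libraries (factors 0.743 to 1.58), and tested with edgeR 4.0.16's quasi-likelihood test (R 4.3.3) in a model of 3 groups over 9 libraries, with Benjamini-Hochberg adjustment at 0.05. The test was first tried on simulated data. Alternatives were DESeq2 1.42.0, limma-voom 3.58.1 with sample weights, other scalings, filters and library sets, the replicate number as a block, and subtraction of the background density per library, with values then per 1000000 of what is left on genes above background and a pseudocount of 2 on the log2 scale. CPM are scaled by TMM. The counting error behind a value follows from the totals of 4471675 to 10667056 counts per library.

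Named genes were up to 12 each way with the smallest p among separated genes above 3 times background with at least 10 CPM in a group, 11 genes always taken, and up to 3 members of each of 39 lists (829 of 830 symbols in the table), some left out for length and 1 of the 12 lower genes not reported here. H2-Aa, Ciita, Mrc1, Lyz2, P2ry12, Ctss, Arc, Npas4, Hbb-bs, Hbb-bt and Hba-a1 were added after their values were seen. The members and lists were chosen with earlier results of these data known.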

Additional observations from a re-analysis of the deposited data

How the results depend on the processing

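The count of genes called was 0 in all 15 alternatives, with 9 (testing only genes above background) to 1671 (limma-voom) at an unadjusted p under 0.05 and 246 to 825 with 1 library left out. Replicate numbers did not pair the samples: deviations of same-numbered naive and RES libraries correlated at 0.02, 0.09 and 0.04, and several libraries correlated better with another number. With the replicate block 0 genes were called and 356 had an unadjusted p under 0.05, and S100a10 (-0.021), Arc (-0.19) and Npas4 (-0.011) turned sign. Among the genes named, the sign of the log2 fold change turned with limma-voom for Chat (-0.015), Arc (-0.12), Npas4 (-0.053) and Drd2 (0.0042). It turned for Drd2 also with scaling on genes above background (0.13), when only those genes were tested (0.13) and after subtraction (0.13), and for Arc after subtraction (-0.20). Ciita turned with scaling on genes above background (0.15). With 1 library left out Drd2 ran from -0.33 to 0.22, S100a10 from -0.60 to 0.47, Adcy5 from -0.61 to 0.014, Rgs9 from -0.77 to 0.10, Glul from -0.80 to 0.17, Clu from -0.97 to 0.23, Hspa1b from -3.06 to 0.12, Arc from -0.78 to 0.44, Npas4 from -0.54 to 0.57 and Ciita from -0.27 to 0.078. The cause was not tested. Scaling on genes above background, chosen after seeing the data, moved 14 of 39 list medians by over 1 SD between replicates, and DESeq2, its size factors and the fit of 6 libraries moved 0. Subtraction of background moved 5 and limma-voom 2. Leaving out RES replicate 1, 2 or 3 moved 7, 6 or 1, and naive replicate 1 or 3 moved 1 or 4. With limma-voom the medians were -0.69 for microglia, -0.32 for immediate early genes and -0.29 for ribosomal proteins (62 of 74 lower). The median of mitochondrially encoded genes was -0.04 with limma-voom (7 of 13 lower). Genes near background, the cholinergic genes included, have count densities close to those of silent genes, so their log2 fold changes say little about them.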

Other observations

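A pair of haemoglobin genes, named after their values were seen, ran against the direction of most lists. Hbb-bs, an adult beta globin of red blood cells, was at 1.47, 1.51 and 1.57 CPM in naive and 3.15, 2.36 and 2.99 in RES. The SUS libraries had 5.63, 5.43 and 7.38 CPM. Over all genes tested, 1296 of 39210 had every RES library above every naive library. Hbb-bs was among them, and its RES libraries were also below every SUS library. The log2 fold change of RES minus naive was 0.90 (SE 0.36), and by edgeR's quasi-likelihood test the unadjusted p was 0.0243, with an adjusted p of 1.00. Without RES replicate 3 it was 0.86. Hba-a1, an alpha globin, was at 0.40, 0.30 and 0.56 CPM in naive, while RES had 1.93, 0.64 and 1.30 (1.51, SE 0.78). These values rest on 5 to 23 counts per library for Hbb-bs and 1 to 11 for Hba-a1, both genes have near-identical copies, and the other adult beta globin, Hbb-bt, had -0.06 (SE 0.58). The red blood cell list averaged under 3 times background in all of its 6 tested genes, 4 of them higher in RES. The share of blood in the punches was not tested.

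Of endothelial and mural cell genes 15 of 18 were lower in RES, with a median log2 fold change of -0.18. With scaling on genes above background the median turned to 0.07 and 8 of 18 were lower. It was -0.09 without RES replicate 2. Of the 7 members above background 6 were lower in the first scaling, beside 77.4% of all genes above background. Vtn, the pericyte protein vitronectin, was at 14.4, 18.7 and 13.1 CPM in naive and 13.3, 6.87 and 9.23 in RES (-0.63, SE 0.30), and RES replicate 1 overlapped naive replicate 3.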
